A study of Saccharomyces cerevisiae with 24 samples.

Results

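The 56 genes described here encode the proteins of the cytosolic small ribosomal subunit (40S) of budding yeast, from RPS0A (YGR214W) to RPS31 (YLR167W). They lie on 14 chromosomes, 36 of them have an intron, and their coding lengths run from 171 to 786 bases. They were chosen by name, as every cytosolic RPS gene of the deposited table, and all 56 were among its 6685 transcripts and passed the filter on low values, as did 6137 transcripts in all. They make 32 proteins, of which 24 come from a pair of paralogs (A and B) and 8 from a single gene. RNA-seq was measured in 24 libraries of strain BY4741, a MATa laboratory strain that carries deletions at HIS3, LEU2, MET17 (MET15) and URA3 in every sample. Cells in synthetic complete medium were taken unstressed at 30 °C or after 20 min of heat shock at 37 °C, in 4 cultures (biological replicates). The cells of each culture and condition were divided into 3 samples, whose RNA was isolated by hot phenol with a clean-up on an RNeasy column (Phenol), with the RNeasy kit, or with the Direct-zol kit, which gives 6 sample types of 4 libraries. Libraries of the same number are therefore from the same culture, and those of the same number and condition are 3 parts of the same harvest.

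The small subunit reads the mRNA. It binds the initiation factors and the initiator tRNA, scans to the start codon and holds the decoding centre, and each of its proteins is needed once per subunit. Ribosomal protein genes are among the most heavily transcribed genes of growing yeast, and most are bound by Rap1, which recruits Fhl1 and the coactivator Ifh1 under the control of the TORC1 and PKA growth pathways. Stresses such as heat lower their transcription as part of a shared environmental stress response, whose induced side is driven largely by Msn2 and Msn4 at stress elements. Most members were doubled in the ancient genome duplication of yeast, so that a protein is often made from 2 mRNAs with different promoters, introns and untranslated regions.

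Upstream sequence and the likeness of paralogs bear on how the values are read. The core of the Rap1 motif (ACCCANACA, searched on both strands) was found within 500 bases upstream of the start codon in 16 of the 56 members (28.6%), in 35.8% of the 81 large subunit genes and in 3.10% of 6002 protein-coding genes. A few of these matches are printed because Rap1 is the best known regulator of these genes. They are from the RefSeq copy of the R64 genome (sacCer3), on the strand of the gene and with the match in capitals.
RPS2 (chrVII:277223-277243, plus strand): agctagACCCATACAcccgct
RPS13 (chrIV:579222-579242, plus strand): aagtagACCCAAACAttttta
RPS10B (chrXIII:732218-732238, plus strand): cgcgcaTGTGTGGGTgtatat
RPS16A, far match (chrXIII:551524-551544, plus strand): tataaaTGTATGGGTgcgtaa
RPS16A, near match (chrXIII:551615-551635, plus strand): attggcACCCATACAttataa
In RPS10B and in the far match of RPS16A the motif lies on the other strand and appears reversed. Abf1, another factor of ribosomal protein promoters, had a match to its motif in 12 members (21.4%) and in 22.7% of all genes. The stress element (AGGGG, both strands) was present upstream of 13 members (23.2%) and of 34.1% of all genes. RPS9A, the one member that did not pass the test for a change after heat shock, had 2 such matches, at 451 and 413 bases upstream, and RPS9B had none. RPS10A and RPS15 also had 2 each. The stretch of RPS9A that holds its stress elements is shown with them in capitals.
RPS9A (chrXVI:404488-404544, plus strand): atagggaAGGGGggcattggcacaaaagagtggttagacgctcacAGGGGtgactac
A match says only that these letters are present, and members with a stress element had a median log2 change after heat shock of -2.89, against -2.94 for those without.

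Paralogs matter because a 50-base read can be placed on one of them only where they differ. In 9 pairs the proteins are identical and in 7 they differ at 1 residue. In the coding sequence, 9 pairs shared no 50-base word, whereas RPS6 shared 72.1%, RPS4 46.8% and RPS24 38.2% of its words. Within a library the split of reads between the genes therefore rests largely on the estimation step for RPS6, and in part for RPS4 and RPS24. The A and B values of these 3 pairs are uncertain. For each of the pairs RPS9, RPS26 and RPS6, the 60-base coding stretch with the most differences is printed with the differing bases in capitals.
RPS9A (chrXVI:405691-405750, plus strand): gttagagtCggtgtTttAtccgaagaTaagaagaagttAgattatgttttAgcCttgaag
RPS9B (chrII:605161-605220, plus strand): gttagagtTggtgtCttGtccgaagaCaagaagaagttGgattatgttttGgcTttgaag
RPS26A (chrVII:148229-148288, minus strand): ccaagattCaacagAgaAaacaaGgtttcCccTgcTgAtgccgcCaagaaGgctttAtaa
RPS26B (chrV:424252-424311, plus strand): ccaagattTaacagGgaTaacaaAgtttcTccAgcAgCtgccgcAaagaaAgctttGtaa
RPS6A (chrXVI:377822-377881, minus strand): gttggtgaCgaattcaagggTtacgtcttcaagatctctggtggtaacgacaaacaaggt
RPS6B (chrII:592243-592302, minus strand): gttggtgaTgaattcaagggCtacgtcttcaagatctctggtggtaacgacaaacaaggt
The RPS9 genes differed at 7 and the RPS26 genes at 11 of the 60 bases, and none of their 60-base stretches was the same in both paralogs. The RPS6 genes differed at 2 bases even here, and 8 of their 11 stretches were identical.

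The libraries matched their labels. LEU2, URA3 and MET17 were at or below 0.1 TPM, a relative abundance per transcript length that adds to the same total in each library, in every library, while HIS3, of which the deletion allele of this strain leaves a part, was at 47.9 to 112 TPM. The mating type a genes MFA1, MFA2 and STE2 were at 109 TPM or more and the alpha factor genes at 2.62 TPM or less. All 5 heat shock genes checked (HSP104, SSA4, HSP26, HSP12 and HSP42) rose with each method, with a median log2 change of 5.53, 5.47 and 5.58 for Phenol, RNeasy and Direct-zol. TPM hold no read depth, so no counting error could be given, and precision rests on the 4 cultures. Scaling factors between libraries ran from 0.776 to 1.27.

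In unstressed cells the members were among the most abundant mRNAs. Their median was 1776 TPM over the 12 unstressed libraries, against 43.7 TPM for all transcripts tested, and 24 of the 100 most abundant transcripts were members. The highest was RPS31, which encodes Rps31 fused to ubiquitin and supplies both to the cell, with a mean of 5291 TPM (range 3567 to 6470). RPS26A, whose protein lines the exit of the mRNA channel, followed with 4775 TPM (2649 to 6012). RPS15, a head protein needed for export of the subunit from the nucleus, had 4682 TPM (4265 to 5081). The ranges of these 3 overlapped, and within libraries RPS31 was above RPS26A in 10 of 12 and above RPS15 in 9, and RPS26A above RPS15 in 7. At the other end stood RPS9A (YPL081W; chrXVI:404950-406044, plus strand, with an intron of 501 bases) with 201 TPM (117 to 246), RPS28B with 393 TPM (197 to 608) and RPS14B with 458 TPM (393 to 562). Although the ranges of RPS9A and RPS28B overlapped, RPS9A lay below both RPS28B and RPS14B within each of the 12 libraries, and RPS28B below RPS14B in 9 of them. Each of these 3 lowest members is the minor copy of a pair whose other copy was higher by 12.8, 7.99 and 6.09 times for RPS9, RPS28 and RPS14, and each is known for feedback from its own protein on splicing (RPS9A, RPS14B) or on mRNA decay (RPS28B).

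**Figure D1:**
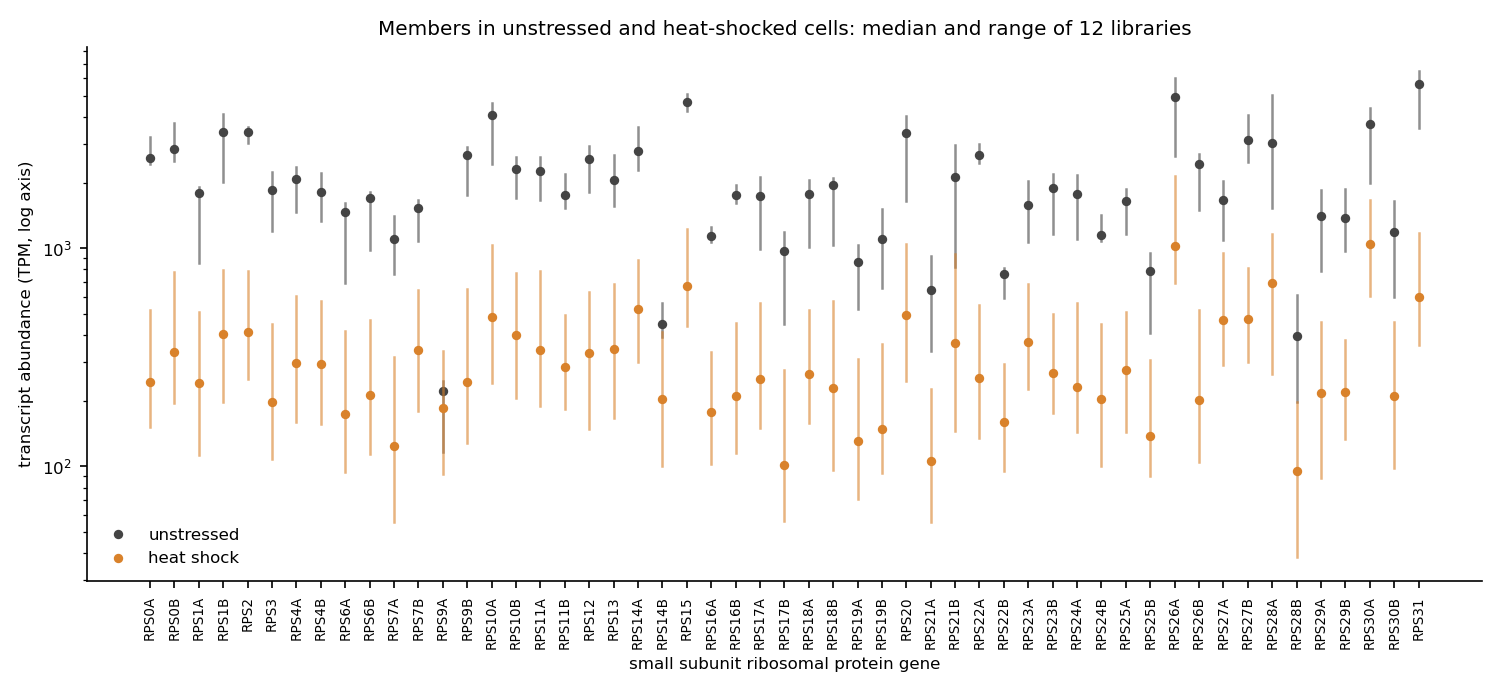
Transcript abundance (TPM, log axis) of 53 of the 56 small subunit genes, with the median (point) and range (line) of 12 unstressed and 12 heat-shocked libraries. The median of RPS9A was 222 TPM unstressed and 185 TPM after heat shock, whereas that of RPS31 was 5672 and 595 TPM.

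When the paralogs were added together, the proteins were closer to each other than the genes. The sum per protein ran from 1779 TPM for RPS3, which is the mRNA entry protein, to 6999 TPM for RPS26, a ratio of 3.93, against a ratio of 6.28 after heat shock. Single-copy genes had a median of 3245 TPM and pairs a median sum of 3356 TPM. Per gene, the 8 single-copy members had a median of 3245 TPM and the 48 members with a paralog a median of 1680 TPM. Together, the 56 members held 9.95 ± 1.12% (SD, n = 4) of all TPM in unstressed cells with Phenol, 11.9 ± 0.203% with RNeasy and 12.9 ± 0.122% with Direct-zol. The 81 large subunit genes held 14.0 ± 1.29%, 15.6 ± 0.201% and 17.1 ± 0.126%.

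After heat shock the members fell together. With each of the 3 methods, 55 of 56 members were lower and 0 were higher at an FDR under 0.01 (limma, Benjamini-Hochberg over 6137 transcripts), where 32.8%, 32.1% and 32.1% of all transcripts were lower and 31.1%, 31.3% and 31.7% higher with Phenol, RNeasy and Direct-zol. The median log2 change of the members was -2.85, -2.91 and -3.02, beside medians of 0.00, 0.01 and 0.02 for all transcripts. Averaged over the methods, the median member was 7.62-fold lower, and the quartiles were -3.19 and -2.75. For 55 members every heat-shocked library was below every unstressed library of the same method, and RPS9A was the exception with all 3. This count was not made over all transcripts, so it has no background beside it. The share of all TPM held by the 56 members came to 1.66 ± 0.449% with Phenol, 2.00 ± 0.779% with RNeasy and 2.22 ± 0.960% with Direct-zol (SD, n = 4). In bulk RNA, less of these mRNAs per cell cannot be told apart from fewer cells that hold them, and TPM are relative to the other mRNAs of the library. On TPM as deposited, without scaling, the median over all transcripts itself moved by 0.19, 0.26 and 0.29, and the same 55 members were called, with medians of -2.64, -2.65 and -2.72.

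RPS31 shows the pattern of most members. With Phenol, RPS31 was at 3567, 3957, 4640 and 3925 TPM in unstressed cultures 1 to 4 and at 717, 520, 361 and 540 TPM after heat shock. With RNeasy, RPS31 was at 5753, 5784, 5591 and 5871 TPM before and 1078, 599, 395 and 671 TPM after. With Direct-zol, RPS31 was at 6470, 6240, 6219 and 5477 TPM before and 1172, 591, 455 and 656 TPM after. Every heat-shocked library lay far below every unstressed one, and culture 1 was the highest after heat shock with each method. The log2 changes of RPS31 were -3.15, -3.42 and -3.48 (SE 0.218 each, adjusted p = 1.36e-10, 3.95e-11 and 3.12e-11). These p-values take the 3 parts of a harvest as independent and are likely too small. UBI4, the polyubiquitin gene induced by stress, rose by 3.57, 3.35 and 3.47 on the log2 scale. RPL40A and RPL40B, the ubiquitin fusions of the large subunit, were lower like RPS31, with -2.60 and -3.36 for Phenol.

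The largest falls were those of RPS26B, RPS0A, RPS22A and RPS9B. RPS26B, the minor copy of the exit channel protein, was at 1489, 1612, 1658 and 1761 TPM with Phenol and at 204, 139, 105 and 123 TPM after heat shock. Its log2 changes were -3.75, -3.73 and -3.68 (SE 0.236) over Phenol, RNeasy and Direct-zol. RPS0A, which encodes one form of a protein on the back of the subunit, changed by -3.68, -3.60 and -3.58 (SE 0.233). RPS22A, for a protein of the platform side, changed by -3.66, -3.53 and -3.62 (SE 0.265), and RPS9B, for a protein beside the mRNA entry, by -3.46, -3.53 and -3.59 (SE 0.284). These 4 were the only members with a mean log2 change below -3.5.

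The smallest falls that passed the test were those of RPS14B, RPS27A and RPS30A. RPS14B changed by -1.30, -1.46 and -1.41 (SE 0.279, adjusted p = 3.46e-04, 1.09e-04 and 1.58e-04). RPS27A, a zinc-binding protein, changed by -1.96, -1.92 and -1.94 (SE 0.176), and RPS30A, a small protein near the decoding centre, by -1.92, -1.98 and -2.02 (SE 0.171). RPS30A remained one of the most abundant members, with 601 to 1666 TPM over the 12 heat-shocked libraries.

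RPS9A did not pass the test with any method. With Phenol, RPS9A was at 117, 130, 169 and 140 TPM in unstressed cultures 1 to 4 and at 157, 166, 92.0 and 156 TPM after heat shock. With RNeasy, RPS9A was at 234, 226, 218 and 214 TPM before and 285, 194, 128 and 191 TPM after. With Direct-zol, RPS9A was at 236, 237, 243 and 246 TPM before and 338, 189, 181 and 204 TPM after. Unstressed and heat-shocked libraries overlapped with all 3 methods, and on TPM as deposited culture 1 was above its own unstressed value while culture 3 was below it in each. After scaling, no member was above its unstressed value in culture 1 with RNeasy. The log2 changes were -0.19 (95% interval -0.61 to 0.22), -0.48 (-0.89 to -0.06) and -0.43 (-0.84 to -0.01), with adjusted p of 0.388, 0.0372 and 0.0604. The fit takes the 3 parts of a harvest as independent, so these intervals are likely too narrow. With Phenol the sign of the RPS9A change turned without culture 3 (0.13) and on unscaled TPM (0.012). Its paralog RPS9B (YBR189W; chrII:604508-605508, plus strand, with an intron of 413 bases) with RNeasy went from 2714, 2562, 2621 and 2794 TPM to 528, 240, 145 and 320 TPM, and no library of one condition reached the other.

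**Figure D2:**
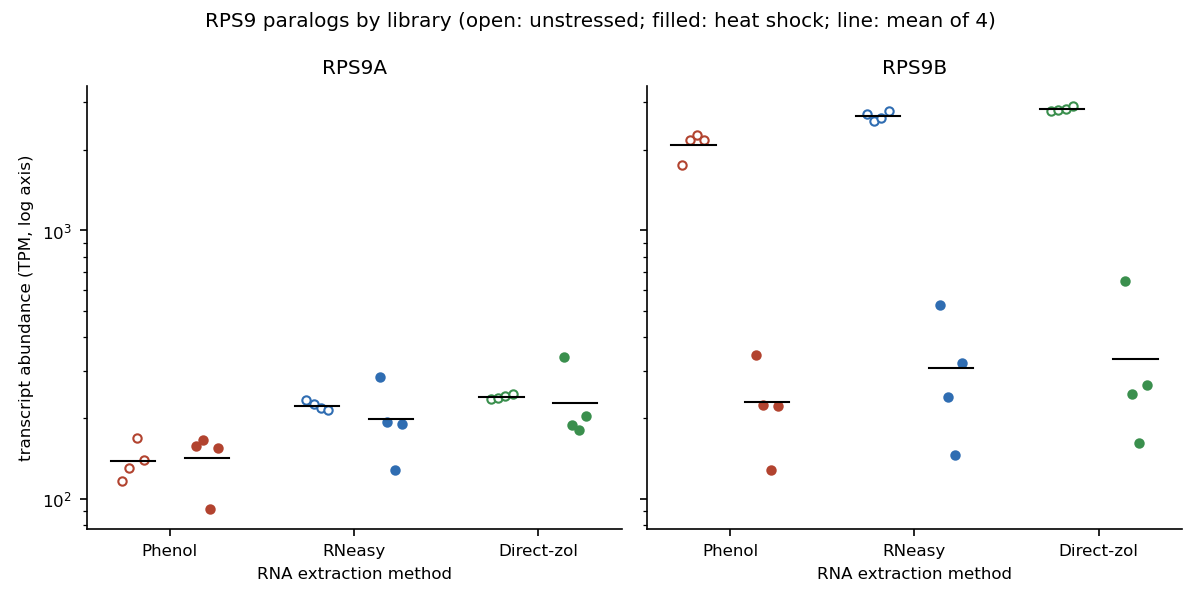
Transcript abundance (TPM, log axis) of RPS9A and RPS9B in each library by extraction method; open points are unstressed, filled points heat shock, and lines the mean of 4 libraries. RPS9B fell with each method, while the RPS9A conditions overlapped.

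The medians of the log2 change by class of member, averaged over methods, lay between -3.20 and -2.69. The median was -2.93 for the 22 genes of head proteins and -2.93 for the 34 of the body and platform. It was -2.93 both for the 24 genes of proteins shared with bacteria (uS) and for the 32 of the others (eS), and -2.92 for the 36 genes with an intron against -2.98 for the 20 without. Single-copy genes had a median of -3.20 and genes with a paralog -2.91. The 16 members with a Rap1 core match changed by -3.13 in the median, with the smallest change at -2.78, and the 40 others by -2.89. Across the 56 members, the log2 change was lower for longer genes, with Spearman rho at -0.34 (Phenol), -0.49 (RNeasy) and -0.49 (Direct-zol). The median was -2.69 for the 10 genes with under 300 coding bases and -3.17 for the 17 with over 500. These genes share the same libraries, and the values are a description without a test.

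On the level of proteins, all 32 sums fell with each method. The sum of the RPS9 pair changed by -2.84, -2.88 and -2.89, although RPS9A itself did not pass the test. The smallest fall with each method was that of the RPS30 sum (-2.07, -2.14 and -2.21). The RPS14 sum changed by -2.32, -2.43 and -2.42.

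Other genes of the small subunit followed to different extents. Of 20 assembly factors of the subunit, 19 were lower with each method, with medians of -1.54, -1.45 and -1.39. KRR1, needed for the early processing of the subunit RNA, changed by -2.56, -2.80 and -2.80, and LTV1, an export factor, by -2.43, -2.53 and -2.52. HRR25, a casein kinase with many other roles, was the one that did not pass the test (0.00, 0.07 and 0.15). ASC1, the RACK1 protein that sits on the head of the subunit, fell by 2.79, 3.06 and 2.98. Of the 81 large subunit genes, 78, 80 and 80 were lower and 1 was higher, with medians between -2.90 and -3.03. The mitochondrial small subunit had medians of 0.11, 0.12 and 0.14, with 11, 9 and 12 of its 33 tested genes higher and 0, 1 and 0 lower, where 31.1%, 31.3% and 31.7% of all transcripts were higher and 32.8%, 32.1% and 32.1% lower.

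Among the mRNAs of 13 listed regulators, 3, 2 and 3 were higher and 7, 5 and 4 lower, beside the same shares of all transcripts. RAP1 fell by 0.52, 0.57 and 0.55, and FHL1 fell by 0.61, 0.63 and 0.53. IFH1 was lower with Phenol (-0.26, limma adjusted p = 0.00109) and was at -0.08 and -0.11 with the kits (adjusted p = 0.292 and 0.151). CRF1, a corepressor that competes with Ifh1 for Fhl1, rose by 1.05, 1.04 and 0.96 from low levels of 1.11 to 9.16 TPM over all libraries. TOD6, a repressor of ribosome assembly genes, fell by 1.49, 1.55 and 1.58.

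The cultures differed in how far the members fell, and did so alike with every method. The median member of culture 1 was 4.74-fold, 5.07-fold and 4.59-fold lower (Phenol, RNeasy, Direct-zol). In culture 3 it was 14.3-fold, 11.7-fold and 13.0-fold lower. Cultures 2 and 4 lay between, from 6.36-fold to 9.19-fold. After heat shock, culture 1 had the highest scaled value of 43, 56 and 56 of the 56 members with Phenol, RNeasy and Direct-zol, and culture 3 the lowest value of 56, 55 and 54. Over all transcripts tested, culture 1 was highest for 33.2%, 33.2% and 39.5% and culture 3 lowest for 31.4%, 34.5% and 31.4%. The median SD of a member between heat-shocked cultures was 0.46, 0.57 and 0.65 on the log2 scale, against 0.15, 0.14 and 0.14 for all transcripts. The large subunit genes had the same order, with medians of -2.30 in culture 1 and -3.74 in culture 3 with Phenol. Unstressed kit libraries were the reverse, with median SDs of members of 0.08 (RNeasy) and 0.07 (Direct-zol) against 0.11 and 0.11, whereas unstressed Phenol libraries had 0.26 against 0.16. Among those Phenol libraries culture 3 had the highest value of 52 of 56 members, compared with 27.5% of all transcripts.

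**Figure D3:**
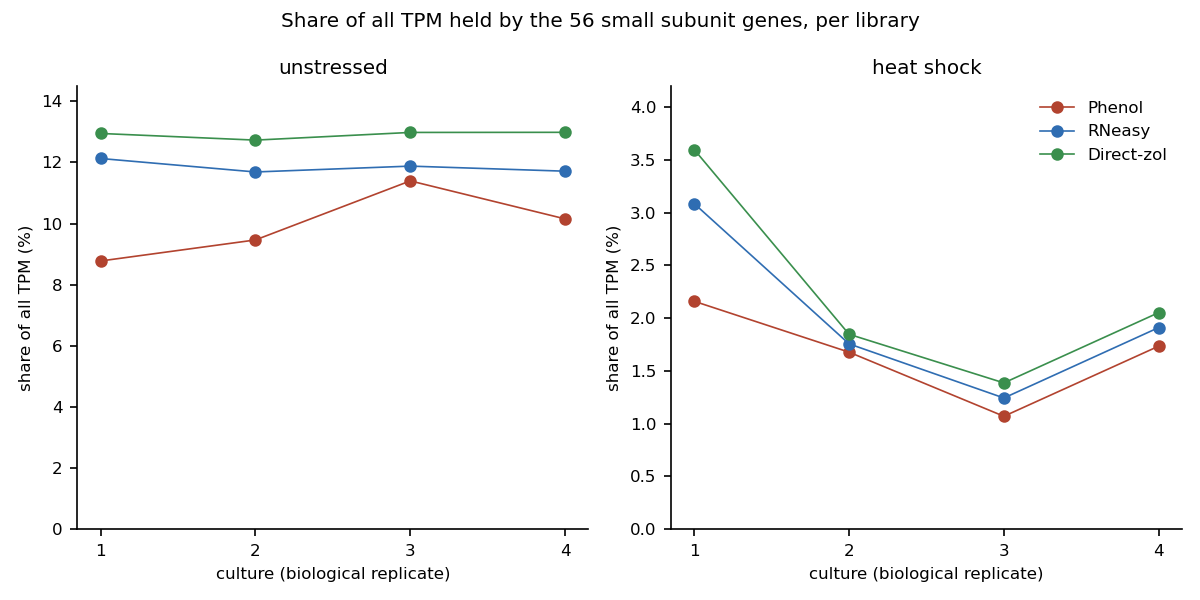
Share of all TPM (%) held by the 56 small subunit genes in each library, by culture and extraction method, for unstressed and heat-shocked cells (the axes differ). After heat shock culture 1 was highest (2.16 to 3.60%) and culture 3 lowest (1.07 to 1.39%) with all 3 methods.

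Paralogs of a pair were often unequal. Over the 12 unstressed libraries the A copy was the higher one in every library for 10 pairs, the B copy for 10 pairs, and 4 pairs had no fixed order. The median difference between copies was 1.63-fold. The most A-sided pairs were RPS28 (log2 A over B 3.00, range 2.33 to 3.65), RPS14 (2.61, 2.42 to 2.86) and RPS22 (1.88, 1.67 to 2.20), and the most B-sided were RPS9 (-3.68, -4.04 to -3.50), RPS21 (-1.65, -1.89 to -1.25) and RPS1 (-1.03, -1.27 to -0.80). RPS28 encodes a head protein at the exit, and both of its copies varied between libraries, also between parts of the same harvest. RPS28A in unstressed culture 1 was at 1529, 5031 and 2771 TPM with Phenol, RNeasy and Direct-zol. The coefficient of variation of RPS28B in unstressed cells reached 53.8% in a group, the highest of the 56 members. RPS28A with RNeasy was at 5031, 2647, 4795 and 2346 TPM in unstressed cultures 1 to 4, a coefficient of variation of 37.9%, against 2.03% for RPS31 in the same libraries. RPS18 had a mean log2 ratio of -0.09, with the B copy higher in all 12 libraries. The mean RPS29 ratio differed between methods, without a test. It was -0.58 (Phenol, B higher in 4 of 4), 0.26 (RNeasy) and 0.34 (Direct-zol, A higher in 4 of 4). With RNeasy the A copy was the lower one in culture 4 (1127 against 1350 TPM). In Phenol culture 3 the copies were close, at 1813 (A) and 1870 TPM (B).

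Heat shock changed the balance of some pairs far more than others. Of 24 pairs, 16 changed by less than 0.5 on the log2 scale, and 11 moved in the same direction in all 12 comparisons of a culture with itself. The median size of the change was 0.33. In 6 pairs (RPS7, RPS9, RPS14, RPS22, RPS23 and RPS26) the ratios of the 12 heat-shocked libraries did not overlap with those of the 12 unstressed ones. Ratios are given as a description, without a test.

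The RPS9 pair changed most, by 3.27 ± 0.363, 3.05 ± 0.326 and 3.17 ± 0.444 (SD, n = 4) with Phenol, RNeasy and Direct-zol. RPS9B was 12.8 times RPS9A in unstressed cells and 1.43 times after heat shock. The RPS26 pair moved towards RPS26A by 1.51 ± 0.194, 1.39 ± 0.286 and 1.29 ± 0.354, so that the A copy went from 2.14 to 5.63 times the B copy. With Direct-zol, RPS26A went from 5568, 5960, 5673 and 6012 TPM to 2140, 1156, 1005 and 1370 TPM, while RPS26B went from 2598, 2590, 2530 and 2552 TPM to 520, 242, 137 and 211 TPM. Both RPS26 copies fell in every culture, RPS26B further.

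In the RPS14 pair, a platform protein whose excess blocks splicing of the RPS14B transcript, the log2 ratio changed by -1.24, -1.24 and -1.27. RPS14A was 6.09 times RPS14B before heat shock and 2.56 times after. The RPS22 pair moved the same way, from 3.69 to 1.66 times, and RPS22B holds the small nucleolar RNA SNR44 within its gene. In the RPS7 pair the B copy went from 1.31 to 2.65 times the A copy. RPS23, a protein of the decoding centre with identical copies, was the only pair whose order turned in all libraries, from B at 1.16 times A to A at 1.39 times B.

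**Figure D4:**
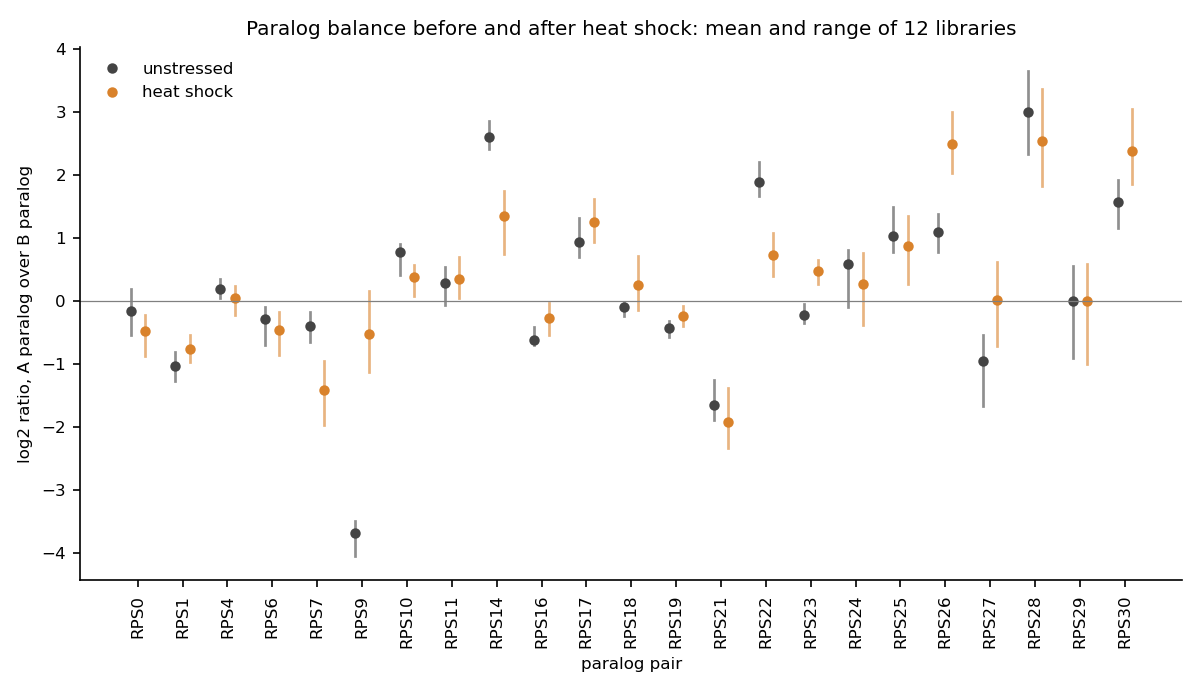
Log2 ratio of the A over the B paralog for 23 of the 24 pairs, with the mean (point) and range (line) of 12 unstressed and 12 heat-shocked libraries. RPS9 rose from a mean of -3.68 to -0.52 and RPS26 from 1.10 to 2.49, and RPS14 and RPS22 moved down towards balance.

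The extraction methods moved members less than heat shock did, and how many passed the test depended on how the cultures entered the fit. In the fit with the replicate number as a term for the whole series, the standard error of a member (median 0.24) was larger than that of all transcripts (0.10). This fit gives each transcript 1 variance for both conditions. The median SD of a member was 0.46 to 0.65 after heat shock but 0.07 to 0.26 unstressed. Unstressed intervals from this fit therefore also carry the spread between heat-shocked cultures. Counts from only the libraries compared are in the last section. A fit with the replicate numbered separately within each condition, planned as an alternative, compares parts of the same harvest, and its counts are given beside. For Phenol vs RNeasy in unstressed cells, 3 members were higher with Phenol and 0 lower, where 22.1% of all transcripts were higher and 19.8% lower. With the replicate within condition the counts were 10 higher and 3 lower, where 24.2% of all transcripts were higher and 22% lower. For Phenol vs Direct-zol in unstressed cells, 0 were higher and 2 lower (all transcripts 22.9% and 21.6%). With the replicate within condition, 2 were higher and 28 lower (all transcripts 25% and 25.1%). For RNeasy vs Direct-zol in unstressed cells, 0 members were called (all transcripts 2.93% higher and 0.961% lower). At an unadjusted p under 0.05 there were 6 members, a count that was not made over all transcripts. With the replicate within condition, 0 were higher and 2 lower (all transcripts 3.76% and 2.79%).

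**Figure D5:**
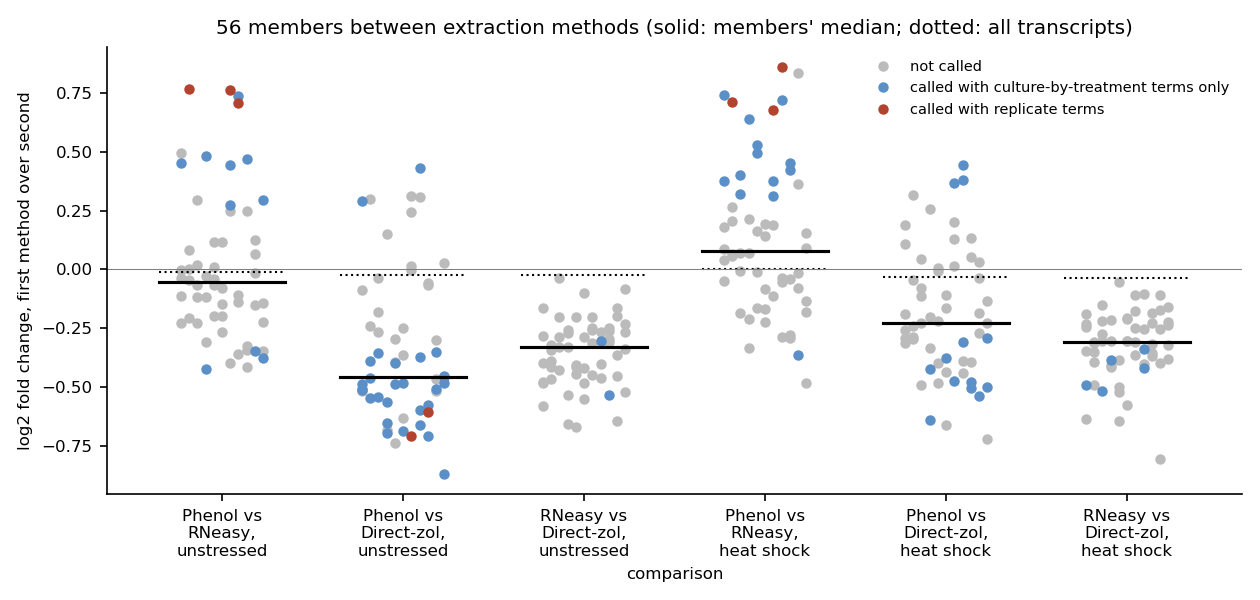
Log2 fold change of each of the 56 members between extraction methods, in unstressed and heat-shocked cells; red points were called with the replicate as a term, blue points only with the replicate within condition, solid lines are the median of the members and dotted lines that of all transcripts tested. All 56 members were below 0 for RNeasy vs Direct-zol in both conditions, where the medians of all transcripts were -0.02 and -0.03.

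The direction of the members was shared most between the kits, less between Phenol and Direct-zol, and was mixed between Phenol and RNeasy. With RNeasy, all 56 members were lower than with Direct-zol in the mean in both conditions, a count not made over all transcripts. Their medians were -0.33 and -0.31, beside -0.02 and -0.03 for all transcripts. The 81 large subunit genes shared this, with medians of -0.34 and -0.32 and highest values of -0.06 and 0.12. In all 4 cultures, 50 and 45 members were lower, a count that was not made over all transcripts. The medians of the 4 cultures in unstressed cells were -0.36, -0.34, -0.32 and -0.36. Between Phenol and Direct-zol it was -0.45 in unstressed and -0.23 in heat-shocked cells, but the culture medians in unstressed cells were -0.68, -0.59, -0.02 and -0.38, so that culture 3 differed from the others. After heat shock they were -0.57, -0.05, -0.08 and -0.05, and the median of the members without culture 1 was -0.08. Between Phenol and RNeasy the median was -0.05 in unstressed cells, with culture medians of -0.31, -0.27, 0.36 and 0.02. There, 34 members were below 0 and 22 above. After heat shock the median was 0.08, with culture medians of -0.24, 0.15, 0.21 and 0.25, and 23 members were below 0 and 33 above. These levels depended on the scaling. On unstressed TPM as deposited, all transcripts had medians of -0.28, -0.11 and 0.16 in the order of the plotted comparisons, and the members -0.35, -0.55 and -0.13. Phenol vs RNeasy then gave 0 higher and 2 lower members in place of 3 and 0, where 12% of all transcripts were higher and 42.5% lower. RNeasy vs Direct-zol then had 31 members lower in all 4 cultures, again without a count over all transcripts. Per the paper, RNA integrity averaged highest with Phenol and was lowest with Direct-zol. It was not a term in these fits, and its part in the differences between methods was not tested.

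RPS14A, RPS27B and RPS29B were higher with Phenol than with RNeasy. RPS14A was at 3513, 2861, 3591 and 2952 TPM with Phenol, 2389, 2547, 2454 and 2284 TPM with RNeasy, and 2820, 2820, 2688 and 2772 TPM with Direct-zol. The Phenol values of RPS14A were all above the RNeasy and Direct-zol values. Its log2 difference from RNeasy was 0.71 (SE 0.191, adjusted p = 0.00433), and from Direct-zol 0.31 (95% interval -0.10 to 0.71, adjusted p = 0.184). RPS27B differed from RNeasy by 0.76 (SE 0.190, adjusted p = 0.00229) and RPS29B, a small zinc-binding protein of the head, by 0.76 (SE 0.208, adjusted p = 0.00450). All 3 were again called after heat shock, with 0.86, 0.68 and 0.71, where 3 members were higher and 0 lower beside 22.6% and 21.1% of all transcripts. RPS0B had a difference of 0.74 from RNeasy in unstressed cells that did not pass (adjusted p = 0.0181) and passed with the replicate within condition. On TPM as deposited these 3 calls were lost in both conditions. RPS27A, the paralog of RPS27B, was at 1130, 1086, 1426 and 1508 TPM with Phenol and 1852, 1611, 1803 and 1658 TPM with RNeasy as deposited, and after scaling it differed by -0.14 (95% interval -0.51 to 0.23), which did not pass.

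At the other end, RPS9A and RPS30A were lower with Phenol than with Direct-zol, with -0.70 (SE 0.197, adjusted p = 0.00518) for RPS9A and -0.61 (SE 0.171, adjusted p = 0.00564) for RPS30A. RPS9A was at 117 to 169 TPM with Phenol and 236 to 246 TPM with Direct-zol, without overlap. RPS21B, which encodes a small protein next to Rps0, was the lowest with Phenol, at 820, 1262, 1915 and 1602 TPM against 2404, 2478, 2583 and 2972 TPM with Direct-zol. Its difference was -0.87 (95% interval -1.51 to -0.23, adjusted p = 0.0214), which did not pass, and did pass with the replicate within condition (adjusted p = 0.00450). RPS6A, whose protein is phosphorylated downstream of TORC1, and RPS1A, a protein of the platform, differed by -0.71 and -0.69 (adjusted p = 0.0389 and 0.0256). Both passed with the replicate within condition, and RPS6A shares most of its sequence with RPS6B.

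Between the kits the widest differences were those of RPS30B (-0.67), RPS21A (-0.66) and RPS28B (-0.64), with 95% intervals of -1.33 to -0.01, -1.33 to 0.02 and -1.42 to 0.13. The narrowest were RPS10B (-0.10), RPS1B (-0.08) and RPS28A (-0.04), and these 3 turned to 0.10, 0.12 and 0.16 on TPM as deposited. None passed the test, which does not show that the kits gave the same values.

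After heat shock the method comparisons differed in part from those of unstressed cells. For Phenol vs Direct-zol, 0 members were called (all transcripts 21.8% higher and 20.8% lower). At an unadjusted p under 0.05 there were 8 members, a count that was not made over all transcripts. With the replicate within condition, 3 were higher and 10 lower (all transcripts 23.8% and 23.9%). For RNeasy vs Direct-zol, 0 were called (all transcripts 3.68% and 0.75%), and within condition 0 were higher and 5 lower (4.4% and 2.51%). Without that term 5 members had an unadjusted p under 0.05, again without a count over all transcripts. For Phenol vs RNeasy within condition, 15 were higher and 1 lower (25.3% and 23.4%).

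With paralogs added, 1 protein was called between methods, RPS14 (0.79, adjusted p = 0.00399, Phenol vs RNeasy after heat shock). In the fit of single genes, 22.6% of all transcripts were higher there and 21.1% lower. With the replicate within condition, an alternative chosen for the sums after seeing the data, 7, 17 and 2 of 32 proteins were called in unstressed cells, in the same order of comparisons. For single genes with this term, 24.2%, 25% and 3.76% of all transcripts were higher and 22%, 25.1% and 2.79% lower. Among the sums called, RPS0 was higher for Phenol against either kit, with 0.60 and 0.37, and RPS1 was lower, with -0.39 and -0.53.

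Across the 56 members the unstressed difference of Phenol vs RNeasy was larger for genes of higher GC content (Pearson r = 0.42, Spearman rho = 0.43), and less related to coding length (r = -0.05, rho = -0.04). The 24 uS genes had a median of 0.16 and the 32 eS genes -0.11. These are descriptions over genes measured in the same libraries.

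The fall after heat shock did not differ detectably between methods. No member, and 0% of all transcripts, passed the test for a difference of responses in any of the 3 pairs of methods (limma). At an unadjusted p under 0.05 there were 0 members in each, and 267, 270 and 69 of all transcripts (Phenol minus RNeasy, Phenol minus Direct-zol, RNeasy minus Direct-zol). With the replicate within condition 5, 4 and 0 members had an unadjusted p under 0.05 and none was called, and 1 transcript of 6137 (0.0163%) was called for Phenol minus RNeasy. The unadjusted count with this term was not made over all transcripts. The median differences of the members were 0.07, 0.16 and 0.03 on the log2 scale, with 40, 45 and 33 of 56 members above 0. The median standard error was 0.34, and 0.16 with the replicate within condition.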

How the data were processed

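RNA-seq of polyA-selected RNA was measured in 24 libraries that were prepared as 1 batch and shared 1 sequencing lane. Per the labels and methods, the authors trimmed single-end 50-base reads with Trimmomatic, mapped them with STAR (sacCer3, R64) and estimated abundance with RSEM. The authors deposited TPM without scaling between libraries, with the Direct-zol columns named Trizol. A second deposited table holds the results of the authors' edgeR comparisons (fold changes and their p-values, raw and adjusted) and was not used.

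Each library was scaled by the trimmed mean of its log ratios (30% of ratios and 5% of abundances trimmed). The values were log2-transformed after adding 1, and limma 3.58.1 (R 4.3.3) was fitted with sample type and replicate as factors and a trended variance, for 6137 transcripts with a mean of at least 1 TPM in a sample type (548 were left out). Calls needed a Benjamini-Hochberg FDR under 0.01 over all of them. Fold changes are on the log2(TPM + 1) scale, which understates the change of low transcripts. The replicate numbers pair the libraries because the study divided the cells of each culture among the methods. Deviations of libraries of the same number and condition had a mean correlation of 0.19 (24 pairs), and those of the same number in the other condition 0.01 (36 pairs). The procedure was tested on simulated data with independent libraries and the same SD in both conditions. That simulation held no culture effect, so it cannot speak to parts of a shared harvest.

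Paralog ratios, shares of TPM and motif counts are descriptions. Head and body proteins were grouped after results were known. The members and gene lists were chosen with earlier results of these data known. Named were the 4 lowest and 4 highest members by mean heat change and by Phenol against both kits, the 3 at each end for RNeasy vs Direct-zol and for paralog ratio, and the 4 pairs whose ratio changed most; RPS31, members with called differences and others were added for their role or after their values were seen. Sequences and coordinates came from the RefSeq copy of R64, read with Python 3.11.15; amino acid sequences were not used here. Alternatives were another scaling or none, other pseudocounts, filters and FDR, other replicate terms, only the libraries compared and leaving out each culture. Values of 3 members are not reported here by name; they stay in all counts and medians.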

Additional observations from a re-analysis of the deposited data

Results flagged for a closer look

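Among 150 groups of 4 libraries examined (24 named members and the summed share, in 6 sample types), 6 held a library that stood apart from the other 3 by most of the group's range, where chance gives about 1 in 20. The summed share of all TPM was 12.7% in culture 2 of unstressed Direct-zol, with 12.9 to 13.0% in the others, a small gap within a narrow group. Culture 1 after heat shock was high for RPS30A with RNeasy (1602 TPM, others 1015 to 1100), for RPS27A with RNeasy (798 TPM, others 467 to 502) and for RPS9A with Direct-zol (338 TPM, others 181 to 204). Culture 3 after heat shock was low for RPS9A with Phenol (92.0 TPM, others 156 to 166). RPS1B was low in culture 1 of unstressed Phenol (2016 TPM, others 2458 to 2534). The number of flags is no higher than chance gives. Those after heat shock fall on the cultures in which members as a whole were highest and lowest, an order already seen in the same values.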

How the results depend on the processing

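The heat calls (55 lower with each method, and all 32 summed proteins) were the same under every alternative run, apart from 56 with RNeasy at an FDR under 0.05 (35.7% of all transcripts lower). The method calls moved. Shares in brackets are those of all transcripts called in the same direction. Without the replicate block, Phenol vs RNeasy had 1 member higher in place of 3 in each condition (20.8% and 21.3%), and the summed pairs had 1 call for Phenol vs Direct-zol unstressed and 0 for Phenol vs RNeasy after heat shock. With the replicate block within treatment, higher and lower members were 10 and 3, 2 and 28, and 0 and 2 in unstressed cells, and 15 and 1, 3 and 10, and 0 and 5 after heat shock (Phenol vs RNeasy, Phenol vs Direct-zol, RNeasy vs Direct-zol), and summed proteins 7, 17 and 2, then 8, 7 and 3. The shares of all transcripts for this block, from single genes, are given with the method comparisons above. On TPM as deposited, Phenol vs RNeasy gave 0 higher (12% and 10.7%) in both conditions, 2 lower in unstressed and 3 in heat-shocked cells (42.5% and 47.9%), Phenol vs Direct-zol gave 4 and 6 lower (27.1% and 35.9%), and the summed pairs gave 2, 0 and 2 calls (Phenol vs Direct-zol unstressed, then Phenol vs each kit after heat shock). With only the libraries compared, the unstressed counts were 5 higher (19.1%), 5 lower (15.7%) and 25 lower (4.61%), and after heat shock 11 higher and 1 lower (20.3% and 15.6%), 2 higher and 3 lower (18.5% and 14.2%), and 13 lower (2.57%). At an FDR under 0.05 there were 12 lower for Phenol vs Direct-zol unstressed (28.7%), and after heat shock 5 higher for Phenol vs RNeasy (28%) and 5 lower for Phenol vs Direct-zol (28%). A pseudocount of 10 gave 1 summed call for Phenol vs Direct-zol unstressed.

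Leaving out each culture gave 0 to 15 lower members for Phenol vs Direct-zol unstressed, the 15 without culture 3 (19.1%). For Phenol vs RNeasy it gave 0 to 3 higher and 0 to 1 lower unstressed, and 0 to 4 higher after heat shock. With all cultures, 22.1% of all transcripts were higher and 19.8% lower there unstressed, and 22.6% were higher after heat shock. Summed calls were 0 to 1 and 0 to 8 unstressed and 0 to 2 after heat shock. Shares of all transcripts without each culture are not given for these ranges, so they have no like background. The heat change of RPS9A with Phenol ran from -0.33 to 0.13 (0.012 on TPM as deposited), and RPS28A for RNeasy vs Direct-zol from -0.27 to 0.32 (0.16 as deposited), where RPS10B and RPS1B reached 0.10 and 0.12. Within 250 bases upstream, 3, 7 and 8 members (5.36%, 12.5% and 14.3%) had a Rap1, Abf1 and stress element match. The shares of all protein-coding genes were 1.33%, 12.9% and 18.8%. Paralog ratios and shares moved by less than 1 SD. Causes were not tested. TPM give no depth, so low members could not be weighed by counts.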
